A study of Mus musculus with 16 samples.

Results

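The 10 genes described here, Ptgs1, Ptgs2, Ptges, Ptgis, Ptger2, Ptger3, Ptger4, Ptgfr, Ptgir and Hpgd, make prostaglandins, receive them or break them down. They were taken by symbol from a table of 27179 entries, all 10 were found, and 9 passed the filter on low values that left 14005 genes for testing. Ptger2 did not pass and is given by its reads. The libraries came from fat progenitors of C57BL/6 mice, sorted by PDGFRb, a receptor of the stromal cells around vessels, and split by the surface peptidase DPP4 into DPP4_neg and DPP4_pos APCs. The series names inguinal white fat as their source. All were grown in medium with 10% serum and then held for 4 h with PBS vehicle or isoproterenol, a beta-adrenergic agonist that raises cAMP, at a dose the labels give as 10 mM. Whether that unit is right could not be settled from the files. Each of the 4 groups (DPP4_neg vehicle, DPP4_neg isoproterenol, DPP4_pos vehicle, DPP4_pos isoproterenol) has 4 libraries. The sources used here do not give the age or sex of the mice. They also do not say whether replicates were separate animals or cultures, so each p-value speaks for the scatter of the libraries, possibly a technical one.

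Prostaglandins are short-lived lipid signals made from arachidonic acid, which phospholipases free from membranes. The cyclooxygenases, constitutive Ptgs1 and inducible Ptgs2, turn it into an unstable intermediate. Terminal synthases then make prostaglandin E2 (Ptges), prostacyclin (Ptgis) and others. The products leave the cell and act on G-protein-coupled receptors of the same or nearby cells. Among these, Ptger2, Ptger4 and the prostacyclin receptor Ptgir raise cAMP, Ptger3 mostly lowers it, and the prostaglandin F2alpha receptor Ptgfr releases calcium. Hpgd begins their breakdown. In white fat the inducible cyclooxygenase has been tied to the recruitment of thermogenic adipocytes, and prostaglandin F2alpha to a block of adipocyte differentiation.

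Under isoproterenol the DPP4_pos APCs held the most Ptgs2, 56.6-fold above their vehicle libraries, where DPP4_neg APCs rose 4.08-fold. Ptgfr rose and Hpgd and Ptger4 fell in both populations. Ptges rose in DPP4_neg and fell slightly in DPP4_pos APCs. Before stimulation DPP4_pos APCs had more of both terminal synthases, of Ptgs1, Ptger3, Ptgir, Ptgfr and Hpgd, and less Ptgs2 and Ptger4. Levels below are deposited normalized counts, reads divided by a size factor for each library. Group values are means ± SD (n = 4), and log2 differences carry ± their standard error and come from limma on log2(normalized count + 1), a scale that understates the change of low genes. A gene counts as changed at a Benjamini-Hochberg adjusted p under 0.05 over all 14005 genes.

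**Figure D1:**
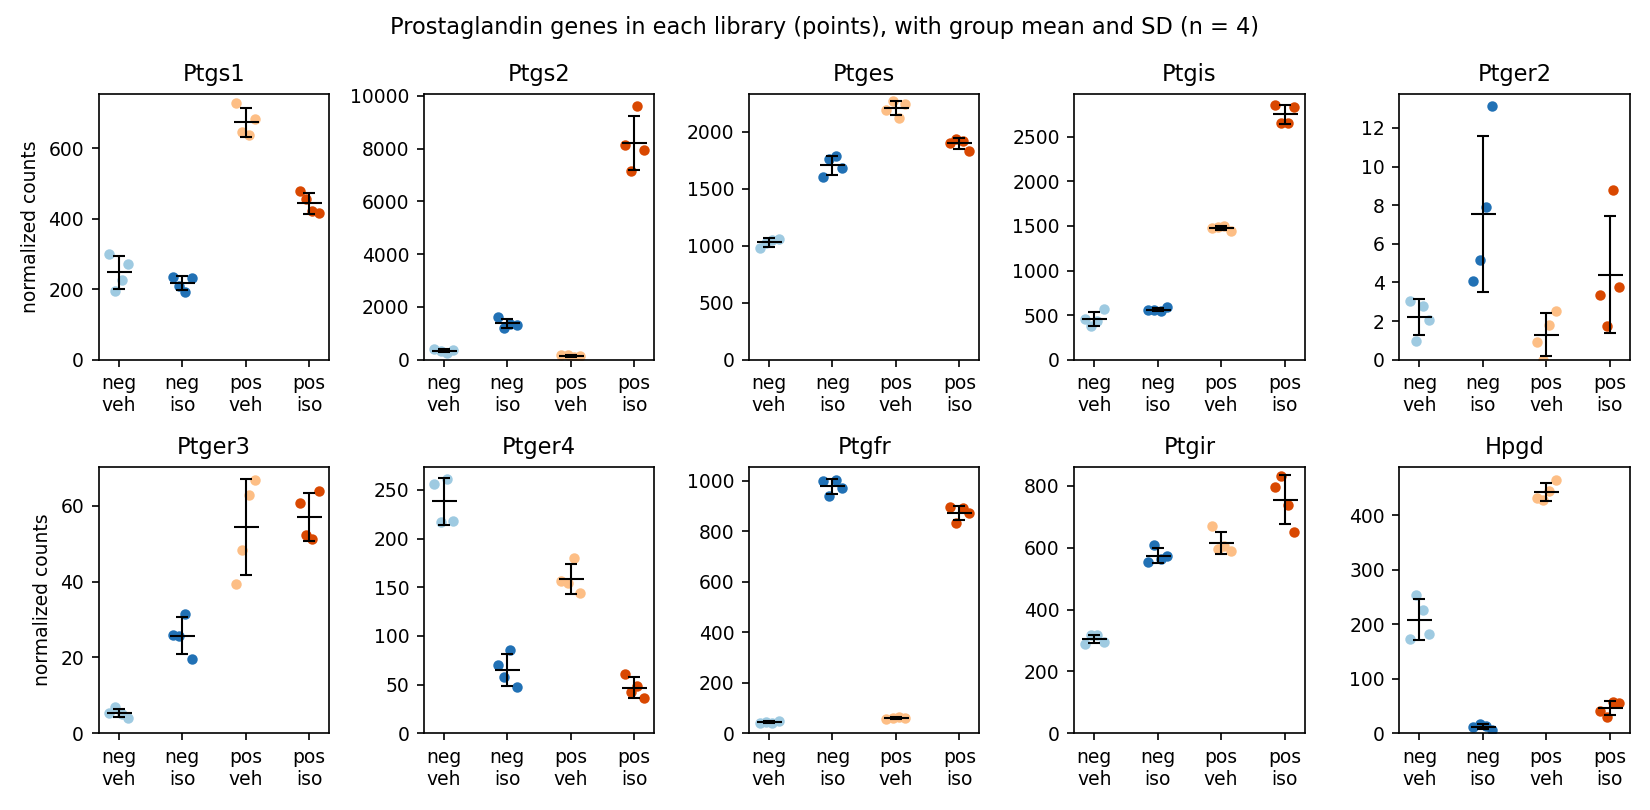
Normalized counts of the 10 genes in each of the 16 libraries (points), with the mean and SD of each group of 4 (bars). neg and pos stand for DPP4_neg and DPP4_pos APCs, veh for vehicle and iso for isoproterenol. Each panel has its own linear axis from 0. Ptgs2 ranged from 7143 to 9614 in DPP4_pos isoproterenol libraries and at most 1619 in all others.

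The libraries held between 9823799 and 28627223 reads in genes. The sort marker Dpp4 lay between 7.89 and 24.6 normalized counts in DPP4_neg libraries and between 2104 and 3227 in DPP4_pos. Pdgfrb was present in every library, at 1987 or more. Crem and Nr4a1, early targets of cAMP, were each higher in every isoproterenol library than in any vehicle library of the same population. These are bulk libraries, so fewer cells of a type and less RNA per cell cannot be told apart. Macrophage and leukocyte markers (12 genes, none at 0 in any group) spanned 737 to 1872 normalized counts in sum over the DPP4_neg libraries given isoproterenol and 424 to 1035 over those given vehicle. For DPP4_pos these ranges were 669 to 1779.5 and 592 to 1370.3. In each population 2 of the 10 tested markers, Csf1r and Cd14, rose with isoproterenol and none fell. Of all genes, 32.1% were called higher and 33.6% lower in DPP4_neg, and 39.4% and 43.3% in DPP4_pos. Csf1r stood at 175 in DPP4_neg vehicle and 693 in DPP4_neg isoproterenol libraries, and Adgre1 and Ptprc, which define the class, did not pass the test. Endothelial markers (10 genes) summed to 234 ± 15.1 in DPP4_neg and 1238 ± 26.8 in DPP4_pos vehicle libraries. Most of each sum was Tek, at 140.3 and 1013. Of the 7 tested, 6 were higher in DPP4_pos vehicle libraries, against 31.6% of all genes. The 6 included Pecam1 (9.13 and 34.7) and Cdh5 (3.91 and 37.1), while Vwf (10.0 and 9.37) did not pass. Mesothelial markers (8 genes) summed to 698 ± 90.8 and 142 ± 24.4, of which Krt19 made up 677 and 103. Wt1 was higher in DPP4_pos (3.99 and 33.3), and the defining Msln had 2 reads in each of these groups.

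Adipocyte and mural markers also differed. All 5 tested adipocyte markers fell with isoproterenol in both populations, against 33.6% of all genes in DPP4_neg and 43.3% in DPP4_pos. Adipoq went from 7933 to 2987 in DPP4_neg and from 2852 to 929 in DPP4_pos. Under vehicle the adipocyte list of 6 summed to 25482 ± 1889 in DPP4_neg and 10444 ± 560.0 in DPP4_pos APCs. Most of each sum came from Car3 (13883 and 5438) and Adipoq. Of the 5 tested, 4 were lower in DPP4_pos vehicle libraries, against 35% of all genes, and Retn (167 and 154) did not pass. The 11 mural markers summed to 113762 ± 5032 in DPP4_neg and 8490.4 ± 509 in DPP4_pos vehicle libraries. Most of each sum was Acta2, at 99429 and 6126, and Myh11 stood at 3819.8 and 137. Of the 10 tested, 6 were lower in DPP4_pos vehicle libraries and Notch3 was higher (798 and 1053), against 35% and 31.6% of all genes. Rgs5, Cspg4 and Kcnj8 did not pass. A cell state differed as well. All 10 genes of an interferon-stimulated list were higher in DPP4_pos vehicle libraries (median log2 difference 4.47), against 31.6% of all genes. They summed to 1809 ± 109 in DPP4_neg and 12895 ± 5456 in DPP4_pos vehicle libraries. The isoproterenol response of all 10 was lower in DPP4_pos (median −2.34), against 31% of all genes. The part of any of these cell types or states in the values below was not tested.

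Ptgs2, on chromosome 1 from 150100031 to 150108234 in GRCm38, read in RefSeq on the plus strand, encodes the inducible cyclooxygenase. In DPP4_neg APCs it stood at 408, 327, 254 and 369 normalized counts under vehicle and at 1619, 1217, 1352 and 1323 under isoproterenol. The DPP4_pos libraries held 177, 158, 116 and 129 under vehicle and 8123, 7143, 9614 and 7951 under isoproterenol. No 2 groups overlapped, and DPP4_pos APCs were lowest before and highest after stimulation. Ptgs2 rose by 2.03 ± 0.13 in DPP4_neg (adjusted p = 7.64e-12) and by 5.82 ± 0.13 in DPP4_pos APCs (adjusted p = 2.71e-20). The response was larger in DPP4_pos by 3.79 ± 0.18 (95% interval 3.41 to 4.18, adjusted p = 1.81e-13), the 16th highest difference of responses among the 14005 genes. DPP4_pos vehicle libraries were 2.33-fold below DPP4_neg vehicle (adjusted p = 3.57e-08). Under isoproterenol they were 5.95-fold above (adjusted p = 9.55e-14).

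The start region of Ptgs2 is shown because it carries a half-site of the cAMP response element, the DNA sequence bound by CREB, and because it rose most of the 9 tested members in DPP4_pos APCs. Windows of 250 bases before to 50 after the start were read from RefSeq on GRCm38.p6 for 9 of the 10 genes. Ptgis had none. Both strands were searched. The first stretch below is chr1:150099931-150100030 on the plus strand, the 100 bases before the start, with 2 matches to the C/EBP motif TTNNGNAA in capitals. The second is chr1:150100031-150100060, the 30 bases from the start on, with the half-site TGACG in capitals as it reads on the opposite strand.
Ptgs2 before the start: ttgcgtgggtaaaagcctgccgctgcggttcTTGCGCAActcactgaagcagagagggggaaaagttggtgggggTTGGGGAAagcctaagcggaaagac
Ptgs2 from the start: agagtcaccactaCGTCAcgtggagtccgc
The half-site lies at bases 14 to 18 after the start and overlaps by 2 bases a match to the E box CACGTG at bases 17 to 22. These positions count from the start that RefSeq gives, and where transcription begins in these cells was not tested. Of the 9 windows, only that of Ptgs2 held TGACG, and no window held the full element TGACGTCA. Among all 32851 windows of this length in RefSeq, 20.8% held TGACG and 1.79% held TGACGTCA. TTNNGNAA was present in 5 of the 9 and in 40.7% of all windows. A match says only that these letters stand there.

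Ptgs1 (chromosome 2 from 36216742 to 36258593), the constitutive cyclooxygenase, did not follow Ptgs2. It read 299, 195, 225 and 271 in DPP4_neg vehicle and 233, 209, 192 and 231 in DPP4_neg isoproterenol libraries. The DPP4_pos values were 728, 647, 636 and 681 under vehicle and 479, 455, 421 and 417 under isoproterenol. Every DPP4_pos library was above every DPP4_neg library, and the DPP4_neg groups overlapped. Ptgs1 fell by 0.60 on the log2 scale in DPP4_pos APCs (adjusted p = 9.49e-06), and its change in DPP4_neg was −0.18 ± 0.10 (interval −0.38 to 0.03, adjusted p = 0.124). Without DPP4_neg vehicle replicate 2 that change was −0.28 (adjusted p = 0.00879, range over all alternatives 0.00879 to 0.557). The responses differed by −0.43 ± 0.14 (adjusted p = 0.0119). DPP4_pos APCs held 2.75-fold more Ptgs1 under vehicle (adjusted p = 1.98e-11) and 2.04-fold more under isoproterenol (adjusted p = 4.98e-09).

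The balance of the cyclooxygenases can be read within each library, where scaling cancels. Per kilobase of merged exons (GENCODE M21), the ratio of Ptgs2 to Ptgs1 was 0.879, 1.08, 0.727 and 0.879 in DPP4_neg vehicle and 4.47, 3.74, 4.52 and 3.69 in DPP4_neg isoproterenol libraries. In DPP4_pos it was 0.156, 0.158, 0.117 and 0.122 under vehicle and 10.9, 10.1, 14.7 and 12.3 under isoproterenol. Ptgs1 was thus the more abundant per length in every DPP4_pos vehicle library and the less abundant in every isoproterenol library of both populations.

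Ptges, the inducible synthase of prostaglandin E2 (chromosome 2 from 30889471 to 30931020), moved in opposite directions. It read 975, 1027, 1051 and 1058 in DPP4_neg vehicle and 1599, 1759, 1784 and 1677 in DPP4_neg isoproterenol libraries. DPP4_pos libraries held 2194, 2265, 2124 and 2246 under vehicle and 1902, 1939, 1914 and 1830.3 under isoproterenol. The 4 groups did not overlap, and the isoproterenol groups lay between the vehicle groups. Ptges rose by 0.73 ± 0.04 in DPP4_neg (adjusted p = 3.92e-13) and fell by 0.22 in DPP4_pos APCs (adjusted p = 3.13e-05), a difference of responses of −0.95 ± 0.06 (adjusted p = 4.38e-12). The gap between the populations went from 1.10 ± 0.04 under vehicle (adjusted p = 2.42e-16) to 0.15 ± 0.04 under isoproterenol (adjusted p = 0.0014). The latter turned to −0.054 with quantile normalization (adjusted p = 0.254, range over alternatives 0.000621 to 0.254).

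Ptgis, prostacyclin synthase (chromosome 2 from 167203194 to 167252150), rose in both populations and was higher in DPP4_pos APCs throughout. Its values were 458, 383, 432 and 565 in DPP4_neg vehicle and 561, 555, 544 and 585 in DPP4_neg isoproterenol libraries, groups that overlapped. In DPP4_pos APCs they were 1482, 1489, 1495 and 1439.6 under vehicle and 2857, 2652, 2658 and 2837 under isoproterenol, without overlap. The rise was 0.30 ± 0.07 in DPP4_neg (adjusted p = 0.00102) and 0.90 ± 0.07 in DPP4_pos (adjusted p = 2.01e-10). The responses differed by 0.59 ± 0.10 (adjusted p = 3.87e-05), a call lost with quantile normalization (0.25, adjusted p = 0.0558, lowest over alternatives 7.15e-09). DPP4_pos APCs had 3.24-fold more Ptgis under vehicle (adjusted p = 6.36e-15) and 4.89-fold more under isoproterenol (adjusted p = 2.78e-17). Of the 7 tested endothelial markers 6 were also higher in DPP4_pos APCs under vehicle, against 31.6% of all genes. Most of the marker sum came from Tek, and the part of these markers in the Ptgis level was not tested. Per kilobase, the ratio of Ptges to Ptgis was 1.43 ± 0.222 in DPP4_neg vehicle, 1.91 ± 0.136 in DPP4_neg isoproterenol, 0.938 ± 0.0374 in DPP4_pos vehicle and 0.433 ± 0.0262 in DPP4_pos isoproterenol libraries. The isoproterenol mean was above the vehicle mean in DPP4_neg and below it in DPP4_pos, and the ratio itself was not tested.

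**Figure D2:**
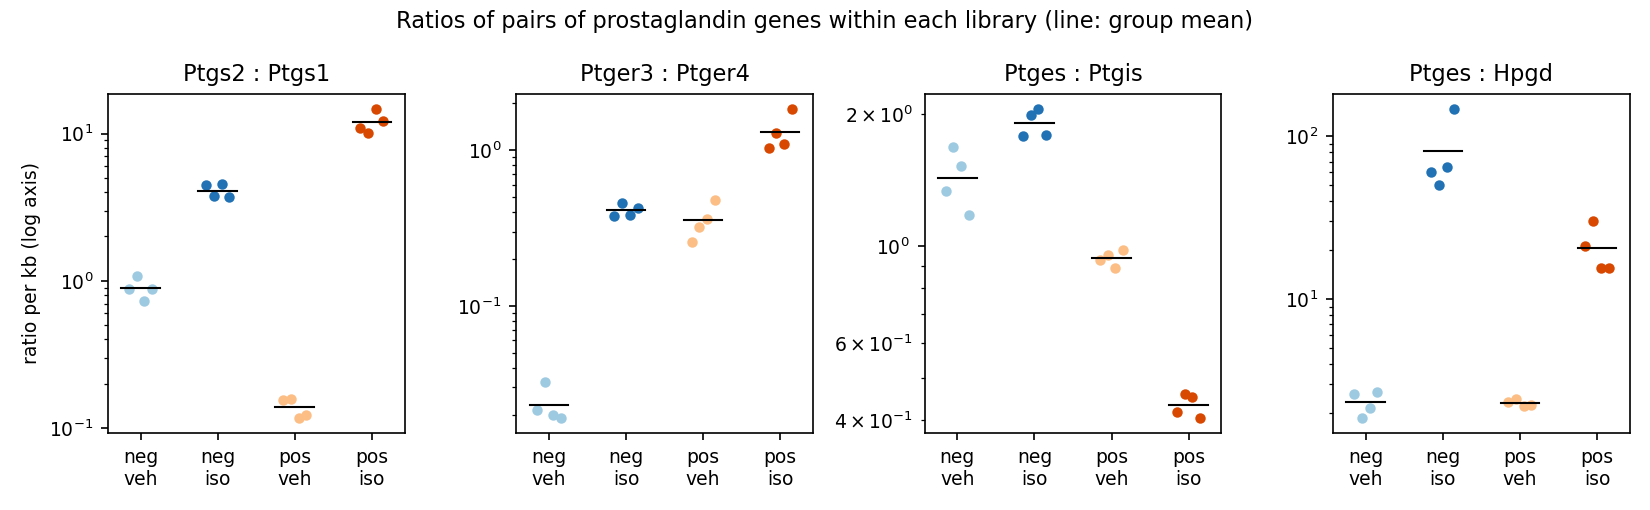
Ratio of the normalized counts per kilobase of 4 pairs of genes within each of the 16 libraries (points), on log axes, with the mean of each group of 4 as a line. neg and pos stand for DPP4_neg and DPP4_pos APCs, veh for vehicle and iso for isoproterenol. The Ptgs2 to Ptgs1 ratio was lowest in DPP4_pos vehicle (0.138 ± 0.0215) and highest in DPP4_pos isoproterenol libraries (12.005 ± 2.01).

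Hpgd, the dehydrogenase that inactivates prostaglandins (chromosome 8 from 56294552 to 56321046), fell in both populations. It read 172, 254, 226 and 182 in DPP4_neg vehicle and 12.1, 16.2, 12.6 and 5.25 in DPP4_neg isoproterenol libraries. In DPP4_pos it read 432, 427, 445 and 466 under vehicle and 41.6, 29.6, 57.0 and 54.5 under isoproterenol. The 4 groups did not overlap, and both isoproterenol groups lay below both vehicle groups. The change was −4.14 ± 0.23 in DPP4_neg (17.6-fold lower, adjusted p = 7.62e-13) and −3.29 ± 0.23 in DPP4_pos APCs (9.79-fold lower, adjusted p = 1.77e-11). Among all genes tested these were the 20th and 130th lowest changes. Counts were small after the fall, with 49 reads in the DPP4_neg and 122 in the DPP4_pos isoproterenol group, against 1159 and 2110 under vehicle. The responses differed by 0.84 ± 0.33 (adjusted p = 0.0309), a call lost in 7 of 25 alternatives. These were an offset of 5 (0.54, adjusted p = 0.0814), no filter on low genes (adjusted p = 0.0557), and those without DPP4_neg vehicle replicate 2 or 3, DPP4_neg isoproterenol replicate 4, or DPP4_pos isoproterenol replicate 3 or 4 (0.54 to 0.80, adjusted p = 0.0563 to 0.0693). DPP4_pos APCs held 2.14-fold more Hpgd under vehicle (adjusted p = 0.000287) and 3.84-fold more under isoproterenol (adjusted p = 1.54e-07). The ratio of Ptges to Hpgd per kilobase was 2.33 ± 0.388 in DPP4_neg and 2.31 ± 0.112 in DPP4_pos vehicle libraries. Under isoproterenol it was 60.7, 50.3, 65.2 and 147 in the DPP4_neg and 21.1, 30.2, 15.5 and 15.5 in the DPP4_pos libraries, all above the vehicle means.

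Of the receptors, Ptgfr for prostaglandin F2alpha (chromosome 3 from 151798610 to 151837528) moved most. It read 39.7, 45.8, 41.4 and 47.4 in DPP4_neg vehicle and 999, 942, 1003 and 970.0 in DPP4_neg isoproterenol libraries. DPP4_pos libraries held 54.7, 60.9, 64.7 and 60.8 under vehicle and 895, 835, 891 and 874 under isoproterenol. The 4 groups did not overlap, and within each the spread was small beside the change. Ptgfr rose 22.0-fold in DPP4_neg (4.46 ± 0.07, adjusted p = 1.46e-22) and 14.3-fold in DPP4_pos APCs (3.84 ± 0.07, adjusted p = 9.34e-22). These were the 54th and 150th highest changes of all genes tested. The response was smaller in DPP4_pos by 0.62 (SE 0.10) on the log2 scale (adjusted p = 1.47e-05). DPP4_pos APCs were higher under vehicle by 0.46 ± 0.07 (adjusted p = 6.53e-06). Their difference of −0.16 ± 0.07 under isoproterenol (adjusted p = 0.0433) did not pass in 9 of 26 alternatives, including those with no filter on low genes (adjusted p = 0.0549) or with the replicate block (adjusted p = 0.0507) and those leaving out any DPP4_pos isoproterenol replicate or DPP4_neg isoproterenol replicate 1, 3 or 4 (−0.18 to −0.14, adjusted p = 0.055 to 0.111).

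The 200 bases before the Ptgfr start, chr3:151837529-151837728 in GRCm38.p6 on the minus strand, are shown because this gene rose most of the 9 tested members in DPP4_neg APCs. The 2 matches to TTNNGNAA are in capitals. No TGACG stood in its window.
Ptgfr before the start: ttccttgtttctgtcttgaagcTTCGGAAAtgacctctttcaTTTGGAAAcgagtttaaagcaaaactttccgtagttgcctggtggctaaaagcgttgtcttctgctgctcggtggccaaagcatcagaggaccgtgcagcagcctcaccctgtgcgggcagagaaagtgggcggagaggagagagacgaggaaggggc

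Ptger4, a receptor for prostaglandin E2 that raises cAMP (chromosome 15 from 5233399 to 5244187), fell in both populations. It read 256, 217, 262 and 218 in DPP4_neg vehicle and 70.5, 57.3, 85.2 and 47.3 in DPP4_neg isoproterenol libraries. In DPP4_pos the values were 157, 154, 179.8 and 144 under vehicle and 60.7, 41.8, 48.2 and 35.7 under isoproterenol. All isoproterenol libraries lay below all vehicle libraries, and the isoproterenol groups overlapped. The changes were −1.89 ± 0.16 in DPP4_neg (adjusted p = 9.02e-10) and −1.77 ± 0.16 in DPP4_pos APCs (adjusted p = 1.21e-09). Their difference was 0.12 ± 0.23, with an interval of −0.35 to 0.59 (adjusted p = 0.666). DPP4_pos APCs were lower under vehicle by 0.58 (adjusted p = 0.00296) and under isoproterenol by 0.46 (adjusted p = 0.0127). The latter call was lost in 4 of 26 alternatives, among them without DPP4_neg isoproterenol replicate 3 or DPP4_pos isoproterenol replicate 4 (−0.35 to −0.33, adjusted p = 0.0574 to 0.0668) with only the groups compared in the fit (−0.46, adjusted p = 0.0533) and with quantile normalization (−0.28, adjusted p = 0.121).

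Ptger3, the prostaglandin E2 receptor that mostly lowers cAMP (chromosome 3 from 157566821 to 157644758), rose in DPP4_neg APCs from a low level. It read 5.34, 6.82, 5.04 and 4.06 in DPP4_neg vehicle, 29 reads in all, and 25.9, 25.7, 31.5 and 19.7 in DPP4_neg isoproterenol libraries. DPP4_pos libraries held 39.4, 48.3, 62.9 and 66.7 under vehicle and 60.7, 52.3, 51.1 and 63.9 under isoproterenol. The DPP4_neg groups did not overlap, while the DPP4_pos groups did and were above both. The rise in DPP4_neg was 2.08 ± 0.20 (adjusted p = 9.22e-09). In DPP4_pos the change was 0.091 ± 0.20, with an interval of −0.33 to 0.52 (adjusted p = 0.685), or 0.63 with quantile normalization (adjusted p = 0.00706, highest over alternatives 0.888). It turned to −0.049 without DPP4_pos vehicle replicate 1. The responses differed by −1.99 ± 0.29 (adjusted p = 3.88e-06). DPP4_pos APCs held 8.69-fold more under vehicle (adjusted p = 9.82e-12) and 2.19-fold more under isoproterenol (adjusted p = 3.74e-05). Per kilobase, the ratio of Ptger3 to Ptger4 was 0.0214, 0.0323, 0.0198 and 0.0192 in DPP4_neg vehicle and 0.378, 0.461, 0.381 and 0.428 in DPP4_neg isoproterenol libraries. In DPP4_pos it was 0.258, 0.323, 0.359 and 0.478 under vehicle and 1.03, 1.28, 1.09 and 1.84 under isoproterenol, above 1 in every library of the last group only. Both genes had 54 reads in DPP4_pos isoproterenol replicate 1, so the 1.03 there rests on the exon lengths used.

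Ptgir, the prostacyclin receptor (chromosome 7 from 16906490 to 16910905), rose in both populations. It stood at 305 ± 14.2 in DPP4_neg vehicle and 575 ± 24.3 in DPP4_neg isoproterenol libraries, and at 615 ± 36.8 and 755 ± 78.8 in DPP4_pos. DPP4_pos vehicle overlapped both isoproterenol groups, and DPP4_neg vehicle was below all others (289.8 to 318). The rise was 0.91 ± 0.07 in DPP4_neg (adjusted p = 4.59e-11) and 0.29 ± 0.07 in DPP4_pos (adjusted p = 0.000336), and the responses differed by −0.62 ± 0.09 (adjusted p = 5.12e-06). DPP4_pos APCs were higher by 1.01 ± 0.07 under vehicle (adjusted p = 7.74e-12) and by 0.39 ± 0.07 under isoproterenol (adjusted p = 1.57e-05). Ptger2, the other prostaglandin E2 receptor that raises cAMP (chromosome 14 from 44988111 to 45003820), had 13 reads in DPP4_neg vehicle, 27 in DPP4_neg isoproterenol, 6 in DPP4_pos vehicle and 12 in DPP4_pos isoproterenol libraries. Scaled by the size factors, isoproterenol against vehicle gave a ratio of 2.91 (95% counting interval 1.45 to 6.15) in DPP4_neg and of 3.56 (95% counting interval 1.24 to 11.6) in DPP4_pos. These intervals cover counting error only. Without the filter on low genes limma gave adjusted p = 0.023 and adjusted p = 0.0292 for Ptger2.

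Counted per kilobase of merged exons, the make-up of the receptor transcripts is given as shares, with no test. The 9 prostanoid receptors summed to 432 ± 13.6 normalized counts per kilobase in DPP4_neg vehicle, 518 ± 18.0 in DPP4_neg isoproterenol, 461 ± 8.86 in DPP4_pos vehicle and 454 ± 23.4 in DPP4_pos isoproterenol libraries. Ptgfr made up 1.51 ± 0.15% of this sum in DPP4_neg vehicle and 28.2 ± 1.47% in DPP4_neg isoproterenol libraries, and 1.95 ± 0.13% and 28.8 ± 1.82% in DPP4_pos. Ptger4 went from 16.6 ± 1.44% to 3.77 ± 0.922% in DPP4_neg and from 10.3 ± 0.81% to 3.07 ± 0.587% in DPP4_pos. The share of Ptgir was 21.2 ± 0.65% and 33.3 ± 1.09% in DPP4_neg, and 40.0 ± 2.19% and 49.8 ± 3.02% in DPP4_pos. The thromboxane receptor Tbxa2r, which mediates vessel constriction and platelet activation, took the largest mean share in DPP4_neg vehicle libraries, 46.2 ± 1.57%. Its share was 23.3 ± 1.71% in DPP4_neg isoproterenol, 30.6 ± 1.69% in DPP4_pos vehicle and 3.83 ± 0.758% in DPP4_pos isoproterenol libraries. Strandedness is not stated in the labels, and reads of genes that overlap on opposite strands therefore cannot be told apart. The share of Ptger1 is uncertain for this reason. Exons of an opposite-strand transcript cover 329 bases of Ptgfr, 156 of Ptgis, 148 of Ptgs1 and 69 of Ptger2.

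**Figure D3:**
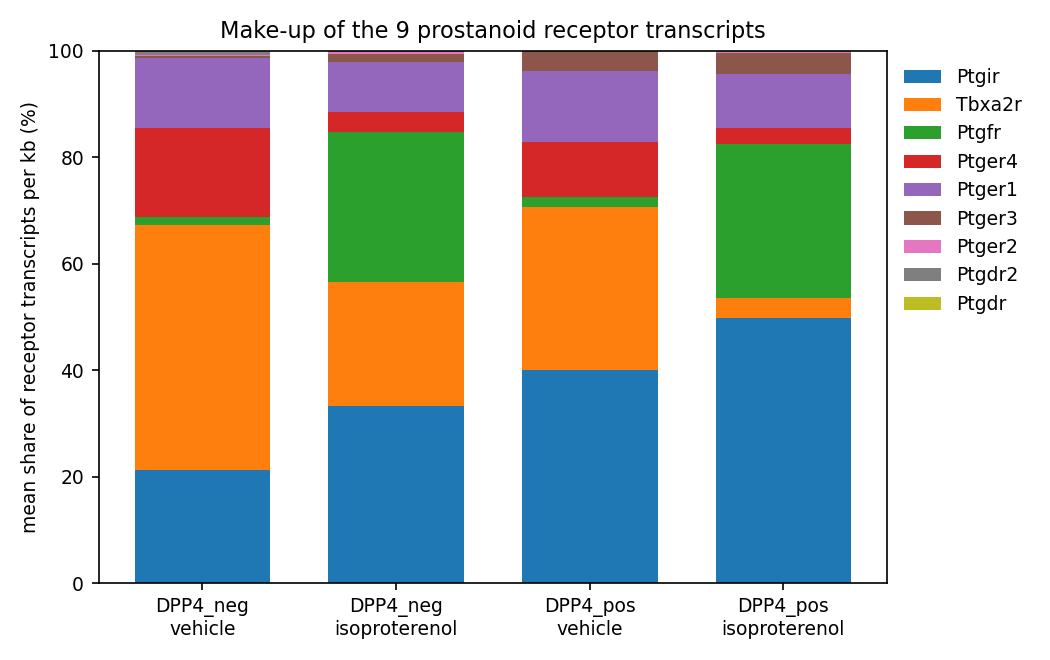
Mean share of each of the 9 prostanoid receptor genes in the sum of their normalized counts per kilobase, in the 4 groups of 4 libraries (stacked bars, linear axis in percent from 0). The Ptgfr part was 1.51 ± 0.15% and 1.95 ± 0.13% under vehicle in DPP4_neg and DPP4_pos APCs and 28.2 ± 1.47% and 28.8 ± 1.82% under isoproterenol.

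Across all 10 genes, levels per kilobase put Ptges (282 ± 10.3) and Ptgis (201 ± 33.6) first in DPP4_neg vehicle and Ptgis (645 ± 10.9) and Ptges (605 ± 17.3) in DPP4_pos vehicle libraries. In DPP4_neg isoproterenol libraries Ptges (467 ± 23.1) was followed by Ptgs2 (309 ± 38.4), and in DPP4_pos isoproterenol libraries Ptgs2 led (1843 ± 231), above Ptgis (1202 ± 48.7). Ptgs2 had been the 7th of 10 in DPP4_pos vehicle libraries (32.6 ± 6.16). These orders rest on exon lengths from GENCODE M21, and the gene models used for counting are not known. In normalized counts Ptges stood above Ptgis in DPP4_pos vehicle libraries (2207 and 1476).

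Of the 9 tested genes, 6 rose and 2 fell with isoproterenol in DPP4_neg APCs, where limma called 32.1% of all genes tested higher, 33.6% lower and 65.7% in either direction. In DPP4_pos 4 rose and 4 fell, against 39.4%, 43.3% and 82.7%. The median change of the 9 was 0.73 in DPP4_neg and 0.091 in DPP4_pos APCs, and that of all genes tested −0.02 and −0.054. The responses differed in 8 of the 9, 3 higher and 5 lower in DPP4_pos, where 62.6% of all genes were called, 31.6% higher and 31% lower. Between populations 7 were higher and 2 lower in DPP4_pos under vehicle, against 31.6% and 35% of all genes (66.6% in either direction). Under isoproterenol it was again 7 and 2, against 37.4% and 37% (74.4%). Groups did not overlap in 58.9%, 77.8%, 67.3% and 63.9% of all genes for the 2 isoproterenol comparisons and the 2 population comparisons, in this order. Changes that were called and at least 2-fold were less common. They took in 5 of the 9 genes with isoproterenol in DPP4_neg and 4 in DPP4_pos, against 15.3% and 30.7% of all genes. The difference of responses reached 2-fold in 2 (15.6% of all genes), and the difference between populations in 7 under vehicle (15.8%) and 5 under isoproterenol (18.7%). The comparisons share groups of libraries and are not independent of each other.

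**Figure D4:**
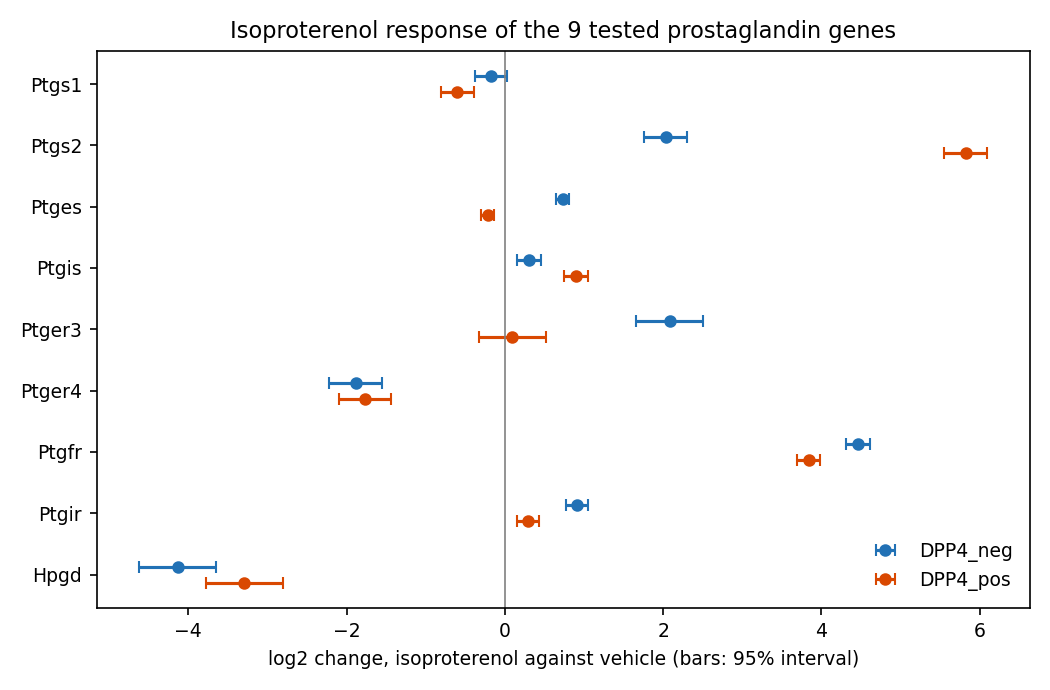
Log2 change with isoproterenol of the 9 tested genes in DPP4_neg and DPP4_pos APCs (limma estimate with 95% interval, 4 libraries per group, linear axis). Ptgs2 stands at 2.03 and 5.82, Ptgfr at 4.46 and 3.84, and Hpgd at −4.14 and −3.29.

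Other genes of the arachidonate pathway were counted from 4 lists. Of 22 genes of arachidonate release, 13 were tested. With isoproterenol 4 rose and 6 fell in DPP4_neg (median −0.18), and 6 rose and 5 fell in DPP4_pos APCs (median 0.07). Among all genes tested, 32.1% were called higher and 33.6% lower in DPP4_neg, and 39.4% and 43.3% in DPP4_pos. Pla2g4a, the cytosolic phospholipase that supplies arachidonic acid to the cyclooxygenases, stood at 589.7, 504, 519.9 and 558 in DPP4_pos vehicle and 2585, 2779, 2762 and 2369.6 in DPP4_pos isoproterenol libraries, without overlap. It rose by 2.27 ± 0.07 there (adjusted p = 1.86e-18) and by 0.29 ± 0.07 in DPP4_neg APCs (adjusted p = 0.00056), where it went from 567 ± 52.5 to 689.8 ± 27.6. The responses differed by 1.98 ± 0.09 (adjusted p = 8.15e-14). Annexin Anxa1, which restrains phospholipase activity, fell by 1.37 in DPP4_neg and 1.68 in DPP4_pos APCs (adjusted p = 3.65e-17 and adjusted p = 4.15e-19). The lipase Mgll, which frees arachidonic acid from a glyceride, fell by 0.29 in DPP4_neg and rose by 0.50 ± 0.05 in DPP4_pos (adjusted p = 5.81e-05 and adjusted p = 1.35e-08). The secreted phospholipase gene Pla2g5 had between 4 and 33 reads per group and was not tested.

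Of 10 other prostanoid synthase genes 8 were tested, of which 4 rose and 1 fell in DPP4_neg and 4 rose and 3 fell in DPP4_pos APCs (medians 0.055 and −0.067). The shares over all genes were 32.1% higher and 33.6% lower in DPP4_neg, and 39.4% and 43.3% in DPP4_pos. The cytosolic prostaglandin E synthase Ptges3, also a co-chaperone, rose by 0.53 ± 0.05 and 1.14 ± 0.05 (adjusted p = 6.49e-09 and adjusted p = 4.65e-15). Ptges2, another prostaglandin E synthase, changed by −0.057 ± 0.07 in DPP4_neg (adjusted p = 0.499) and rose by 0.27 ± 0.07 in DPP4_pos (adjusted p = 0.00169). Ptgds, a prostaglandin D synthase, had at most 8 reads in a group. Akr1c18, a reductase of prostaglandins and steroids, stood at 15.015 ± 2.91 in DPP4_neg and 377 ± 19.4 in DPP4_pos vehicle libraries, a difference of 4.58 ± 0.17 (adjusted p = 3.56e-16).

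The transport genes Slco2a1 and Abcc4 rose in both populations. Slco2a1, the carrier that takes prostaglandins up from outside the cell, went from 1583 ± 155 to 4477 ± 373 in DPP4_neg (1.501 ± 0.06, adjusted p = 1.67e-15) and from 1812 ± 75.8 to 10865 ± 446 in DPP4_pos APCs (2.58 ± 0.06, adjusted p = 4.77e-20). Its responses differed by 1.08 ± 0.08 (adjusted p = 4.13e-10). Abcc4, which exports prostaglandins and cyclic nucleotides, rose by 2.26 ± 0.05 and 1.82 ± 0.05 (adjusted p = 1.07e-20 and adjusted p = 2.05e-19). Ptgr1, a reductase that acts after Hpgd, rose by 0.23 ± 0.07 in DPP4_neg and fell by 0.45 in DPP4_pos (adjusted p = 0.00589 and adjusted p = 3.42e-06). In the whole list of 6 genes of breakdown and transport 3 rose and 2 fell in DPP4_neg, and 2 rose and 3 fell in DPP4_pos APCs (medians 0.069 and −0.089). For this list and the next, the shares over all genes were 32.1% higher and 33.6% lower in DPP4_neg, and 39.4% and 43.3% in DPP4_pos. Of 5 other receptor and partner genes 3 were tested, none rose in either population, and 2 fell in DPP4_neg and 3 in DPP4_pos (medians −0.25 and −0.41). Among them Tbxa2r went from 270.2 ± 12.7 to 33.3 ± 6.74 in DPP4_pos (−3.004 ± 0.12, adjusted p = 4.09e-16) and from 383 ± 18.9 to 232 ± 24.5 in DPP4_neg APCs (−0.73 ± 0.12, adjusted p = 1.18e-05), responses that differed by −2.28 ± 0.16 (adjusted p = 1.16e-10).

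**Figure D5:**
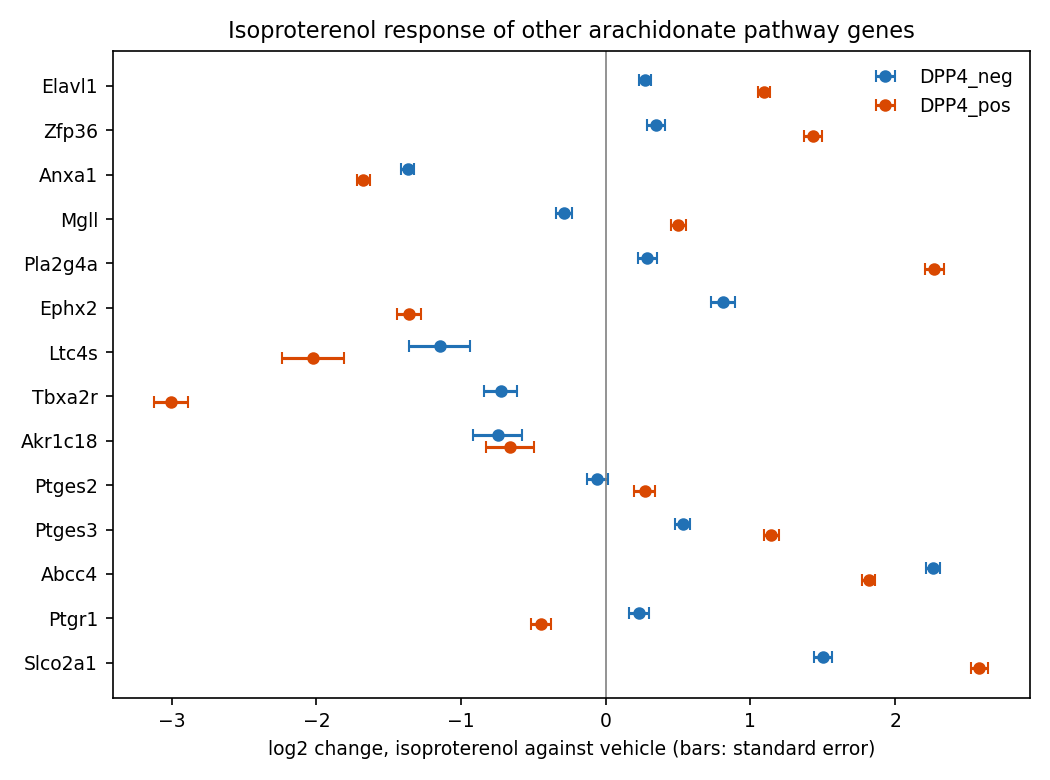
Log2 change with isoproterenol of the 14 tested genes named from the other pathway lists, in DPP4_neg and DPP4_pos APCs (limma estimate with its standard error, linear axis). Pla2g4a stands at 0.29 and 2.27, Slco2a1 at 1.501 and 2.58, and Tbxa2r at −0.73 and −3.004.

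Likeness of pattern was measured by Pearson's r of log2(normalized count + 1) over the 16 libraries, against the 11437 other tested genes with a mean of at least 50. These points share library, depth and the 4 groups, and r is given as a description. The genes most like Ptgs2 were Mak16 (r = 0.997), Etf1 (r = 0.996) and Nop2 (r = 0.996), with 757 genes above r = 0.95. The genes most like Ptgfr were B4galt1 (r = 0.998), Nxn (r = 0.997) and Tnfrsf1b (r = 0.995), and those most like Hpgd were Fam124a (r = 0.984), Adm (r = 0.983) and Gpd1l (r = 0.981). Those of Ptges were Fam198a (r = 0.981), Maf (r = 0.979) and Scpep1 (r = 0.974), and those of Ptger3 were Maf (r = 0.983), Tmem100 (r = 0.983) and Fmo2 (r = 0.983). Ptgis was nearest to Prkg2 (r = 0.995), Aldh7a1 (r = 0.993) and Hdac7 (r = 0.991), and Ptgs1 to Naalad2 (r = 0.979), Enpp3 (r = 0.978) and Ntn1 (r = 0.977). For Ptger4 they were Aldh6a1 (r = 0.980), Acad10 (r = 0.979) and Lbh (r = 0.977), and for Ptgir Sgpp1 (r = 0.982), Psap (r = 0.977) and Tmod1 (r = 0.973). The sizes of change differed within such pairs: Mak16, nearest to Ptgs2, went from 462 ± 16.3 to 1389 ± 46.5 in DPP4_pos APCs. Between members, r was highest for Ptges and Ptger3 (0.952) and lowest for Ptger4 and Ptgfr (−0.94).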

How the data were processed

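RNA was sequenced from 16 libraries, each made from 500 ng of total RNA. DESeq2 1.6.3, featureCounts 1.4.6, HISAT2 2.0.1 and Trim Galore 0.4.1 are listed, with GRCm38 and mm10, per the submitters' processing notes. The sources used here name no settings and no gene models. Values in the deposited table are a normalized signal, the read count of a gene divided by a size factor per library, per the file headers and its values. Of the 280334 values above 0, 100.0% were whole multiples of the library's step, within 0.001, which gave back the reads. Entries without a symbol (958, 0.093% of counts) were kept and are not named, and 26 symbols turned into dates were restored.

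Genes with at least 10 normalized counts in at least 4 libraries were tested with limma 3.58.1 (R 4.3.3, mean-variance trend, 4 group means, Benjamini-Hochberg). The procedure was checked on simulated data in which only a small part of the genes changed, in a single group. That check does not cover changes as widespread as those in these libraries. Alternatives were other offsets, filters, scalings and fits, edgeR 4.0.16 and DESeq2 1.42.0 on the recovered reads, the replicate block and leaving out each library. Replicate numbers are shared by the groups. Lengths and overlaps came from GENCODE M21, positions from RefSeq GRCm38.p6. The 10 genes and the lists were chosen with earlier results of these data known. From the lists the text names 12 genes whatever their values and, per comparison, the 3 called genes with the largest change among those with a mean of at least 50. The 3 genes of most similar pattern per member follow a fixed rule.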

Additional observations from a re-analysis of the deposited data

Results flagged for a closer look

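The isoproterenol response differed between the populations, by limma's test of the difference (DPP4_pos minus DPP4_neg, log2 scale), in 8 of the 9 tested genes, where 62.6% of all genes were called. The difference was positive for Ptgs2 (3.79), Hpgd (0.84, a smaller fall in DPP4_pos APCs) and Ptgis (0.59). It was negative for Ptger3 (−1.99), Ptges (−0.95, a rise in DPP4_neg and a fall in DPP4_pos APCs), Ptgfr (−0.62), Ptgir (−0.62) and Ptgs1 (−0.43). Adjusted p ranged from 1.81e-13 for Ptgs2 to 0.0309 for Hpgd. In none of the 40 sets of 4 libraries of these genes did 1 library stand apart by Dixon's test. That test would flag about 1 in 20 by chance. With 4 values it has little power, and the 40 sets come from the same 16 libraries, so outlying libraries may have been missed.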

How the results depend on the processing

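Over 26 alternatives (25 for a difference of responses), 37 of the 45 differences tested for the 9 genes kept their direction and their side of the threshold in every one that could be run. The reversals were these. Ptges under isoproterenol, DPP4_pos against DPP4_neg, went to −0.054 with quantile normalization. The Ptger3 change in DPP4_pos went to −0.049 without DPP4_pos vehicle replicate 1. The difference of the Ptger4 responses went to −0.021 without DPP4_neg isoproterenol replicate 4 and to −0.015 without DPP4_pos isoproterenol replicate 1. Leaving out single libraries gave −0.049 to 0.20 for that Ptger3 change and −0.021 to 0.26 for that Ptger4 difference. The cause was not tested. The calls lost or gained are given with each gene's values. The offset of 5 gave 0.54 for the difference of the Hpgd responses (adjusted p = 0.0814). No filter gave adjusted p = 0.0557, in a fit of 22955 genes. Counts of genes called stayed within 1.5 times of the main value in every alternative, from 8189 to 12782. The replicate block gave 9295 and 11612 calls for isoproterenol in DPP4_neg and DPP4_pos APCs, against 9199 and 11581 without it, and ended only the Ptgfr call between populations under isoproterenol. Libraries with the same number deviated together (r over 0.1) in 1 of 24 pairs, so the numbers were not taken as pairs. With TMM scaling the median of all genes in DPP4_pos moved from −0.054 to −0.098. Depth limits Ptger3, with 6 to 9 reads per library in DPP4_neg vehicle, Hpgd, with 4 to 22 in DPP4_neg isoproterenol, and Ptger2, which was below the filter.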

Other observations

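Arachidonic acid also feeds the leukotrienes and, through cytochrome P450 enzymes, epoxides. Of 15 genes in a list of the lipoxygenase and leukotriene branch that also holds the epoxide hydrolases Ephx1 and Ephx2, 7 were tested and 8, among them Alox5 and Alox15, were too low. With isoproterenol 1 (Ephx2) rose and 2 (Ephx1 and Ltc4s) fell in DPP4_neg, where limma called 32.1% of all genes higher and 33.6% lower. None rose and 4 (Ephx1, Ephx2, Ltc4s and Cysltr2) fell in DPP4_pos APCs, against 39.4% and 43.3% (medians 0.018 and −0.83). Ephx2, the soluble epoxide hydrolase, which acts on the epoxides and not on leukotrienes, went from 1161 ± 118 to 2032 ± 172 in DPP4_neg and from 331 ± 35.2 to 128 ± 10.7 in DPP4_pos, a difference of responses of −2.17 ± 0.12 (limma adjusted p = 7.88e-13). Ltc4s, leukotriene C4 synthase, fell by 1.15 and 2.03 on the log2 scale (adjusted p = 6.9e-05 and adjusted p = 1.36e-08).

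Of 8 genes whose proteins bind AU-rich elements of unstable mRNAs, a class that includes Ptgs2 mRNA, 5 rose and 1 fell in DPP4_neg and 7 rose and none fell in DPP4_pos APCs (medians 0.11 and 0.45). Over all genes 32.1% were called higher and 33.6% lower in DPP4_neg, and 39.4% and 43.3% in DPP4_pos. Zfp36, which promotes decay of such mRNAs, rose by 0.35 ± 0.06 and 1.43 ± 0.06, and Elavl1, which stabilizes them, by 0.27 ± 0.04 and 1.09 ± 0.04 (adjusted p = 5.16e-05, 3.4e-15, 4.71e-06 and 1.8e-16 in limma).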
